A study of Mus musculus with 3 samples.

Results

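The genes described here are 10 genes of the platelet-derived growth factor (PDGF) axis and of activated fibroblasts, taken by symbol from the 47480 gene symbols of the deposited tables. They comprise the ligand genes Pdgfa and Pdgfb, the receptor genes Pdgfra and Pdgfrb, the cell surface genes Fap and Thy1, and the matrix genes Postn, Tnc, Fn1 and Sparc. All 10 were among the 12710 genes that passed the filter on low counts. They were measured by RNA-seq in 3 untreated mammary tumours of the FVB-MMTV-Neu strain, in which the mouse mammary tumour virus promoter drives the Neu oncogene in mammary epithelium. The growth protocol describes orthotopic transplants in hosts of the same strain, left to grow for 7 days after reaching 5 mm, whereas the design text speaks of tumours of untreated mice. The labels form 1 group with no control tissue, and whether each tumour had a donor mouse of its own is not stated. The tumours are numbered 1, 2 and 3 in order of deposition, and the spread between them may be biological or technical. With 1 group no comparison of conditions was possible, so no test was run, and the differences between single tumours given below have no replicate check.

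PDGF ligands are secreted dimers of chains such as PDGF-A and PDGF-B, and they act through the receptor tyrosine kinases PDGFRα and PDGFRβ. PDGF-A chains signal mainly through PDGFRα, whereas PDGF-B dimers bind both receptors. In many tissues PDGFRα marks fibroblasts and PDGFRβ marks fibroblasts and the mural cells of blood vessels, and endothelial cells and platelets are known sources of PDGF-B. Fibroblasts activated in tumours and wounds are known for the surface protease FAP, for Thy1, and for secreted matrix proteins such as periostin, tenascin C, fibronectin and SPARC.

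RefSeq promoter windows on GRCm38.p6 were found for 5 of the 10 genes. The 250 bases before the start are shown for 3 of them. Pdgfra ranged most between the tumours, Tnc was also lowest in tumour 1, and for Postn tumour 1 lay between the others. Capitals mark the motifs found.
Pdgfra (chr5:75152001-75152250, plus strand): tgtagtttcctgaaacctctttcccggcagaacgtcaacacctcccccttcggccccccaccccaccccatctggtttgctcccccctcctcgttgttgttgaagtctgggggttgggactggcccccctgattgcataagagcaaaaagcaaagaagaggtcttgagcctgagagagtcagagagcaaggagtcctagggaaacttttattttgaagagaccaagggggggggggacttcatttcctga
Tnc (chr4:64047016-64047265, minus strand): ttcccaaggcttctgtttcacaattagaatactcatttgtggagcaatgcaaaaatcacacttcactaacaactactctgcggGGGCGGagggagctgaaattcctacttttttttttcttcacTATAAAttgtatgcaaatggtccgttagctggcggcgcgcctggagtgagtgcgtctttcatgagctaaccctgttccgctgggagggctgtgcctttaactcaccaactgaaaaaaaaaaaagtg
Postn (chr3:54360857-54361106, plus strand): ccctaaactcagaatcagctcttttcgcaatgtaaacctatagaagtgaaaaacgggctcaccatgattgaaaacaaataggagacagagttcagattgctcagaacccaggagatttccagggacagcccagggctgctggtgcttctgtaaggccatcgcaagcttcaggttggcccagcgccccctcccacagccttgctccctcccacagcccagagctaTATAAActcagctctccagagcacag
The motifs searched on both strands were TGANTCA, to which AP-1 binds, TATAAA of the TATA box, GGGCGG of the GC box and CCAAT of the CCAAT box, and none of the matches overlapped another. The Pdgfra stretch held none of these letters. The Tnc stretch held TATAAA starting 126 bases before the start and GGGCGG starting 167 bases before it. The Postn stretch shown held TATAAA starting 26 bases before the start. Another Postn window, from 54359017 to 54359266 on chromosome 3, held none of these letters and is not shown. Of 32851 windows, 12.4% held TATAAA, 32.7% GGGCGG, 33.8% CCAAT and 6.75% TGANTCA in the same 250 bases.

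The libraries held 47449153 (tumour 1), 11388769 (tumour 2) and 17147394 (tumour 3) estimated counts. The 10 genes together took 0.327, 0.174 and 0.181% of these counts. Tumours 2 and 3 resembled each other (r = 0.95 over the log2 CPM of 12710 genes, which are not independent replicates), while tumour 1 stood apart (r = 0.65 with tumour 2 and 0.75 with tumour 3). Rn18s-rs5, a ribosomal RNA sequence, held 0.20, 7.87 and 6.68% of the library in tumours 1, 2 and 3, and its part in the differences of tumour 1 was not tested. By the file headers, lane 1 held tumour 1 and lane 5 held the other tumours, so lane and tumour 1 cannot be told apart. Levels are given as CPM, which are counts brought to a common library total, here with totals scaled by TMM, a method that sets the bulk of genes equal between libraries. Differences are on the log2 scale of CPM with a prior count of 2, and tumour 1 is set against the mean of the other tumours. The filter had a minimum count of 10.

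The ligand genes differed in how even they were. Pdgfa (chromosome 5, 138976014 to 138997370), which encodes the PDGF-A chain, had 78.5 CPM in tumour 1, 67.0 CPM in tumour 2 and 57.1 CPM in tumour 3, with a mean of 67.5 ± 10.7 CPM (SD, n = 3). Its coefficient of variation, 15.8%, was the smallest of the 10 genes. Exons of the antisense gene 6330403L08Rik overlap Pdgfa, and it had 491, 75 and 76 counts beside the 5427, 539 and 899 counts of Pdgfa. Genes on the opposite strand that overlap exons of Pdgfra, Fn1 and Tnc had at most 20 counts in any tumour.

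Pdgfb (chromosome 15, 79995874 to 80014977), which encodes the PDGF-B chain, was at 98.3, 337 and 185 CPM, or 207 ± 121 CPM. It was lowest in tumour 1 and highest in tumour 2. The difference of tumour 1 from the others was −1.34 on the log2 scale, and −0.57 once a trend in GC content and length was removed. Within the shared lane, tumour 2 was 1.82-fold above tumour 3 (95% exact counting interval 1.73 to 1.92, which covers counting error only). The sums of mural cell, macrophage and skeletal muscle markers, given below, had the same order as Pdgfb. So did the marker list of endothelial cells, a known source of PDGF-B, with summed levels of 236, 1838 and 684 CPM. Of its 9 genes, 3 were at least 2-fold below both others in tumour 1 (20.7% of all genes), and 5 were at least 2-fold above both others in tumour 2 (5.43% of all genes). Those below in tumour 1 included the adhesion gene Pecam1 at 56.4, 775 and 231 CPM and the vascular gene Egfl7 at 45.6, 627 and 242 CPM. Platelet markers, of which 3 passed the filter, were also lower in tumour 1, with summed levels of 12.3, 132 and 85.0 CPM over 6 genes. Of these, the chemokine gene Pf4 was at 7.59, 50.2 and 43.9 CPM and the receptor subunit gene Gp1bb at 0.939, 40.6 and 26.4 CPM, while Ppbp and Gp9 had 0 counts in tumours 2 and 3. The part of endothelial cells and platelets in the Pdgfb values was not tested.

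Of the receptor genes, Pdgfra ranged most of all 10 genes, and Pdgfrb stayed within a narrow range. Pdgfra (chromosome 5, 75152292 to 75198215) had 18.1 CPM in tumour 1, 84.5 CPM in tumour 2 and 59.3 CPM in tumour 3, with a mean of 54.0 ± 33.5 CPM (SD, n = 3). The counts behind these levels were 1250, 680 and 933, and the 95% Poisson intervals were 17.1 to 19.1, 78.3 to 91.1 and 55.6 to 63.2 CPM. Tumour 1 lay below both others, with differences of −2.22 from tumour 2 and −1.71 from tumour 3 on the log2 scale. Pdgfrb (chromosome 18, 61045150 to 61085061) was at 82.7, 82.4 and 57.5 CPM, or 74.2 ± 14.4 CPM. Tumours 1 and 2 were level for Pdgfrb, and tumour 3 was lower than both. In bulk tissue, fewer cells of a type and less RNA per cell cannot be told apart.

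**Figure D1:**
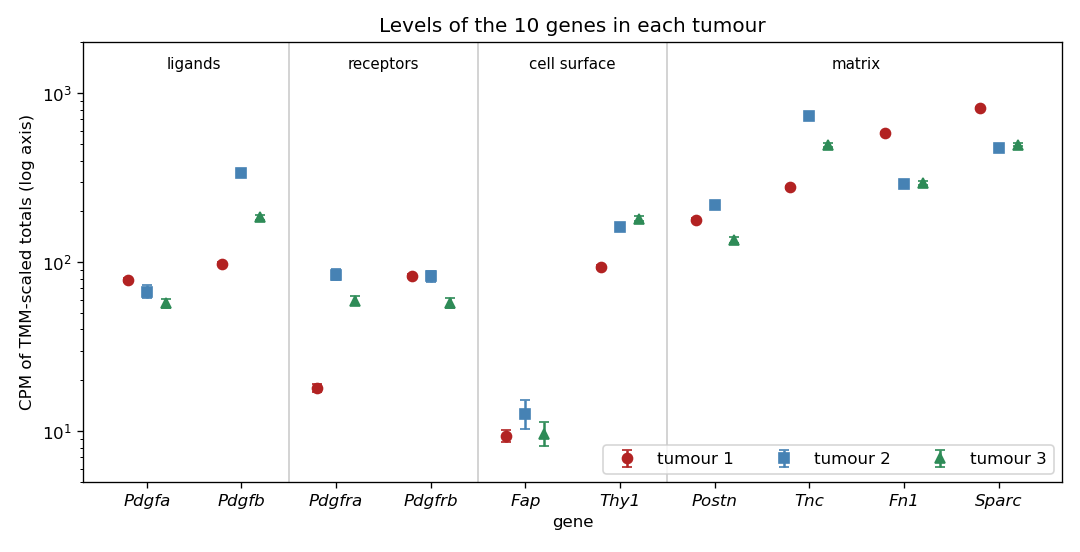
CPM of TMM-scaled totals on a log axis for each of the 10 genes in tumours 1, 2 and 3. Points are single tumours and bars are 95% Poisson intervals of the counts; Pdgfra in tumour 1, at 18.1 CPM, lies below tumours 2 and 3, at 84.5 and 59.3 CPM, while the 3 tumours lie close together for Pdgfa, Pdgfrb and Fap.

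The balance between genes inside a library does not depend on how libraries are scaled. Pdgfra took 17.9% of the reads of both receptor genes in tumour 1 (Wilson 95% interval 17.1 to 18.9%). It took 50.6% in tumour 2 (48.0 to 53.3%) and 50.8% in tumour 3 (48.5 to 53.0%). Tumours 2 and 3 thus had nearly the same receptor balance, and tumour 1 lay far outside their counting intervals. Of the reads of both ligand genes, Pdgfb took 55.6% in tumour 1 (54.7 to 56.5%), 83.4% in tumour 2 (82.1 to 84.6%) and 76.4% in tumour 3 (75.0 to 77.7%). All 3 ligand shares differed by more than their counting intervals. These shares are of reads and not of molecules, since the genes differ in length.

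**Figure D2:**
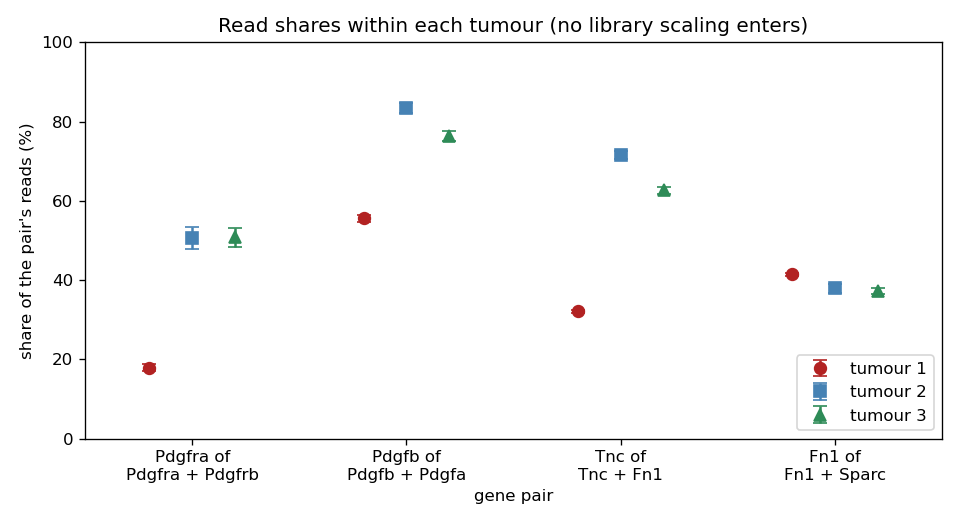
Share of the reads of a gene pair that the first gene took, in percent, in tumours 1, 2 and 3. Points are single tumours and bars are Wilson 95% intervals of the counts; Pdgfra took 17.9% of receptor reads in tumour 1 and 50.6 and 50.8% in tumours 2 and 3, whereas the share of Fn1 beside Sparc stayed between 37.3 and 41.5%.

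The surface genes moved little or with tumour 1 low. Fap (chromosome 2, 62500943 to 62574075), a serine protease of activated fibroblasts, was the lowest of the 10 genes at 9.37, 12.7 and 9.66 CPM, or 10.6 ± 1.83 CPM. Its counts were 648, 102 and 152, and tumour 1 and tumour 3 lay within each other's 95% Poisson intervals, 8.66 to 10.1 and 8.19 to 11.3 CPM. Thy1 (chromosome 9, 44043384 to 44048579), a glycoprotein of fibroblasts that mouse T cells and neurons also carry, was at 93.7, 162 and 181 CPM, or 146 ± 45.9 CPM. Tumour 1 was lowest, with a difference of −0.87 from the others, and of −0.14 once the trend in GC content and length was removed. T cell markers, of which 3 passed the filter, had the same order in their sum, with 15.05, 22.2 and 34.1 CPM over 7 genes. They included the T cell receptor subunit gene Cd3e, with 32, 7 and 26 counts. The kinase gene Lck, at 12.3, 11.9 and 22.3 CPM, was not higher in tumour 2 than in tumour 1. Nerve and Schwann cell markers, of which 4 passed the filter, summed to 49.1, 49.3 and 24.5 CPM over 6 genes. The adhesion gene Ncam1 among them was at 13.6, 27.1 and 11.1 CPM. The part of T cells and nerve in the Thy1 values was not tested.

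The matrix genes went in different directions. Tnc (chromosome 4, 63959785 to 64047015), which encodes the anti-adhesive matrix protein tenascin C, was at 277, 734 and 495 CPM, or 502 ± 228 CPM. Like Pdgfra and Pdgfb it was lowest in tumour 1 and highest in tumour 2, and tumour 1 differed from the others by −1.12. Postn (chromosome 3, 54361109 to 54391037), which encodes periostin, a partner of collagen fibres, was at 179, 219 and 136 CPM, or 178 ± 41.5 CPM. Tumour 1 lay between the others for Postn.

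Fn1 and Sparc were the genes of the matrix group that were highest in tumour 1. Fn1 (chromosome 1, 71585520 to 71653200), which encodes fibronectin, was at 583, 289.8 and 294 CPM, or 389 ± 168 CPM. Without tumour 1 the mean of Fn1 was 236 CPM, with the filter and TMM totals recomputed, so it is on another CPM scale. The difference of Fn1 in tumour 1 was 1.01 from tumour 2 and 0.99 from tumour 3. Sparc (chromosome 11, 55394500 to 55423183), which encodes a collagen-binding matrix protein, was at 823, 475 and 495 CPM, or 598 ± 195 CPM. On the recomputed scale without tumour 1, the mean of Sparc was 391.8 CPM. Tumour 1 differed from the others by 0.76. Tumours 2 and 3 were close for both genes, with tumour 2 to tumour 3 ratios of 0.985 (0.937 to 1.04) for Fn1 and 0.958 (0.922 to 0.996) for Sparc. The pair kept nearly the same balance throughout, with Fn1 taking 41.5, 37.9 and 37.3% of their reads in tumours 1, 2 and 3. Tnc took 32.2% of the reads of Tnc and Fn1 in tumour 1 (31.8 to 32.6%), 71.7% in tumour 2 (70.7 to 72.6%) and 62.7% in tumour 3 (61.9 to 63.6%). Tnc and Fn1 thus went apart in opposite directions from tumour 1.

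The spread of the 10 genes was set beside that of all genes. The range between the highest and the lowest tumour reached 4-fold in 1 of 10, Pdgfra, against 29.5% of the 12710 genes past the filter. Without tumour 1, or without tumour 2, that count was 0. It reached 2-fold in 4 of 10, Pdgfra, Pdgfb, Tnc and Fn1, against 65.6% of all genes. The median SD of log2 CPM over the tumours was 0.47 for the 10 genes, with a span of 0.23 to 1.16, and 0.72 for all genes. In tumour 1, Pdgfra alone was 2-fold or more below each other tumour (1 of 10, 20.7% of all genes), and no gene was that far above (0 of 10, 22.1% of all genes), with Fn1 just short of it. In tumour 2 none of the 10 was that far above (5.43% of all genes) or below (7.14%), nor in tumour 3 (0.865% above and 1.35% below). A 4-fold gap to each other tumour was met by none of the 10 in any tumour. Of all genes, 6.05% were that far above and 8.21% below in tumour 1, 0.252 and 0.59% in tumour 2, and 0.0787 and 0.0787% in tumour 3. Tumour 1 was the lowest tumour for 5 of 10 genes, against 41.6% of all genes, and the highest for 4 of 10, against 47.1%. Tumour 2 was the highest for 5 of 10, against 35% of all genes. Between tumours 2 and 3, which share a lane, no gene of the 10 was 2-fold apart, against 16.2% of all genes, and 7 of 10 were higher in tumour 2, against 48.4%. The median difference of the 10 genes was −0.09 in tumour 1, 0.36 in tumour 2 and −0.25 in tumour 3, beside 0.11, −0.09 and 0.01 for all genes.

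Scalings that multiply whole libraries moved all genes in tumour 1 alike. Library totals without scaling factors raised the median difference of all genes in tumour 1 by 0.84, and a scaling to the median of the 24 other fibroblast genes, added after the data were seen, raised it by 0.91. DESeq2 size factors, upper-quartile factors, library totals, TMM without muscle markers and Rn18s-rs5, and the fibroblast scaling each shift all genes nearly alike. Once the shift of that median is subtracted, the 10 genes are therefore within 0.01 of their TMM values by construction. Before the shift is subtracted, Fap was at 0.60 with library totals and at 0.67 under the fibroblast scaling, and Thy1 at −0.02 and 0.04. Postn, at 0.05 under TMM, was at −0.05 with DESeq2 size factors. Removal of a trend in GC content and length, which moves genes unequally, changed the picture for single genes. With no shift subtracted, the differences in tumour 1 were then −2.56 for Pdgfra, −1.32 for Tnc, 0.91 for Fn1, −0.57 for Pdgfb and −0.14 for Thy1. Fap was at −0.71, and Postn, at −0.62 beside 0.05 under TMM, alone of the 10 changed sign.

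**Figure D3:**
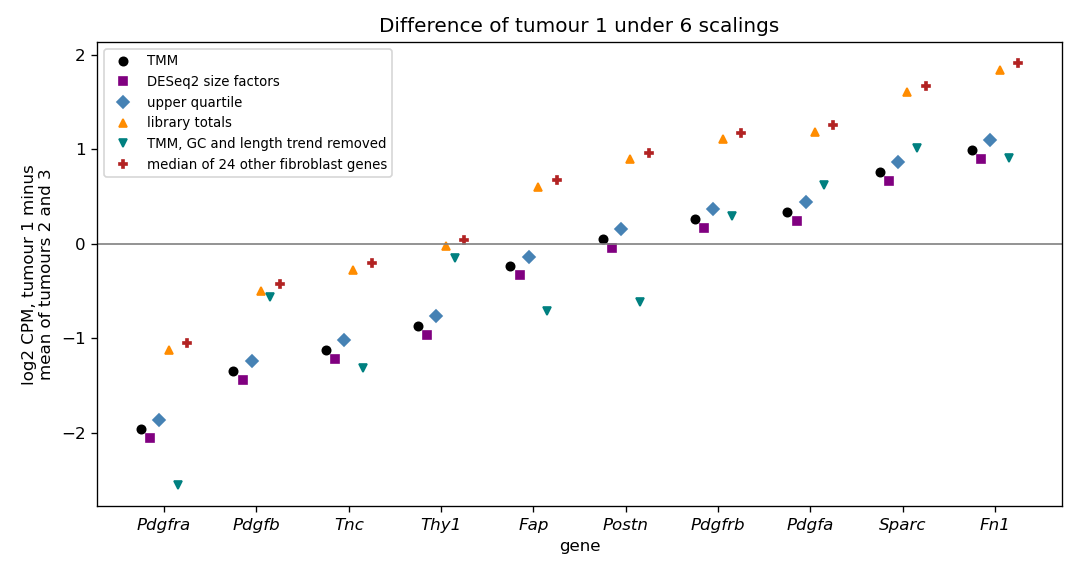
Difference in log2 CPM of tumour 1 minus the mean of tumours 2 and 3 for each of the 10 genes under 6 scalings, shown as separate symbols. Pdgfra, Pdgfb and Tnc stay below 0 and Pdgfrb, Pdgfa, Sparc and Fn1 above 0 in all 6. Library totals and the fibroblast scaling lift the median of all genes by 0.84 and 0.91. Fap lies above 0 only under these, at 0.60 and 0.67, and Thy1 only under the fibroblast scaling, at 0.04.

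Between genes, levels were compared as CPM per kilobase of the longest annotated transcript. In this measure Sparc was highest, at 259.9 ± 85.0 CPM per kilobase (SD, n = 3), and ranked first in every tumour. It was followed by Thy1 at 83.9 ± 26.5, Tnc at 70.6 ± 32.1, Pdgfb at 70.2 ± 41.0, Fn1 at 46.8 ± 20.2, Postn at 34.1 ± 7.95 and Pdgfa at 32.8 ± 5.18 CPM per kilobase. Pdgfrb, at 13.7 ± 2.66, Pdgfra, at 7.90 ± 4.91, and Fap, at 3.69 ± 0.639 CPM per kilobase, were lowest. Only Sparc and Thy1, and Pdgfa and Pdgfrb, differed as neighbours in this order by more than their SDs together, and the other neighbours overlapped. The order of the receptors, like that of some other pairs, rests on the length chosen. The log2 ratio of Pdgfra to Pdgfrb per kilobase averaged −1.04 ± 1.29 with the longest transcript and 1.09 with the median transcript length, so no order of the receptors is given. The log2 ratio of Tnc to Fn1 per kilobase was −0.85, 1.57 and 0.98 in tumours 1, 2 and 3 with the longest transcript. With the median transcript length it was −2.40, 0.01 and −0.58, so their order is not firm either. With the longest transcript, pairs kept their order in all 3 tumours in 34 of 45 cases.

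Other genes of the PDGF pathway differed between tumours in both directions, and all 23 passed the filter. By the 2-fold rule, 7 of 23 stood above each other tumour in tumour 1 (22.1% of all genes) and 4 of 23 below (20.7% of all genes). The ligand gene Pdgfc was at 20.4, 6.21 and 8.14 CPM in tumours 1, 2 and 3, highest in tumour 1, unlike Pdgfb. Pdgfd was low, with 122, 8 and 10 counts, and the receptor-like gene Pdgfrl was even at 7.92, 9.94 and 8.14 CPM. Furin, a protease that processes PDGF precursors, was at 83.8, 104 and 86.8 CPM.

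Among signal carriers, Ptpn11, which encodes the phosphatase SHP2 that binds activated receptors, was at 136, 21.5 and 25.3 CPM. The kinase gene Src was at 144, 59.3 and 54.6 CPM, and the adaptor gene Nck2 at 63.2, 8.95 and 26.1 CPM. These genes were highest in tumour 1. The endocytic receptor gene Lrp1, whose product binds PDGFRβ, was lowest in tumour 1 at 113, 958 and 505 CPM. So were the transcription factor gene Stat3 at 235, 1096 and 817 CPM and Pik3r2, a regulatory subunit gene of phosphoinositide 3-kinase, at 40.1, 123 and 87.5 CPM. The list had a median difference of 0.50 in tumour 1, and 0.11 was that of all genes.

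**Figure D4:**
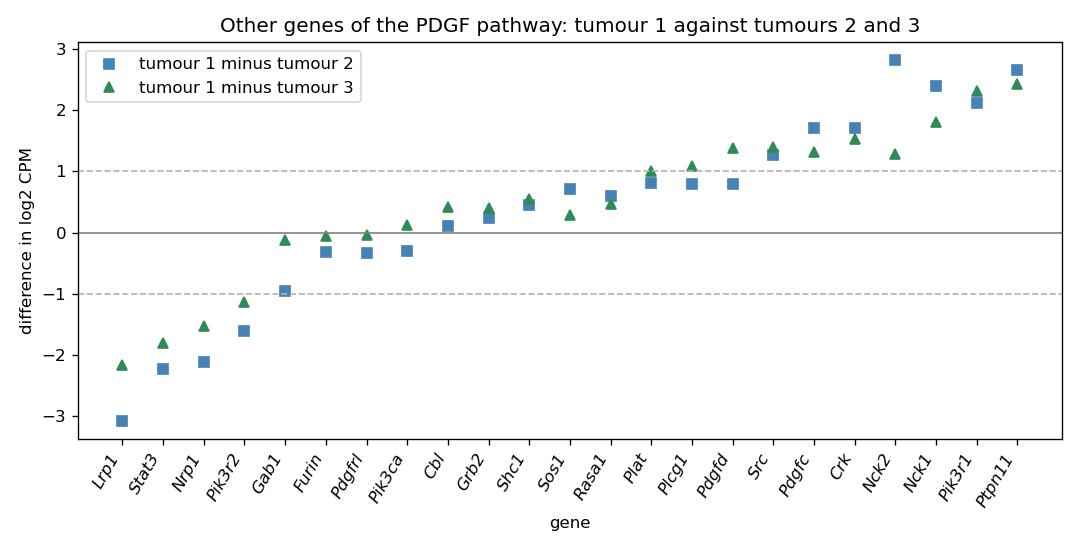
Difference in log2 CPM of tumour 1 minus tumour 2 (squares) and minus tumour 3 (triangles) for 23 other genes of the PDGF pathway, ordered by their mean, with dashed lines at 2-fold. Lrp1 and Stat3 lie lowest and Ptpn11 highest. In tumour 1, 7 genes lie beyond the upper and 4 beyond the lower dashed line against each other tumour.

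Of 24 other fibroblast and matrix genes, all of which passed the filter, Lrrc15, named here after its value was seen, alone stood 2-fold or more above each other tumour in tumour 1 (1 of 24, 22.1% of all genes) and 6 of 24 stood as far below (20.7% of all genes), with a median difference of −0.50. Collagen transcripts were abundant in all 3 tumours. Col1a1, a chain of collagen I, was at 1576, 3695 and 1625 CPM, and Col1a2, its partner chain, at 1228, 1803 and 1109 CPM. Col3a1, of collagen III, was at 965, 566 and 402 CPM, and Col6a1 at 219, 611 and 322 CPM. Vim, the intermediate filament gene of mesenchymal cells, was at 384, 644 and 531 CPM. Dcn, a proteoglycan gene of fibroblasts, was lowest in tumour 1 at 75.1, 172 and 174 CPM, as was Pdgfra. The genes with the largest range were also lowest in tumour 1. Pi16, a gene of resting fibroblasts, was at 20.0, 214 and 62.5 CPM, S100a4 at 8.28, 62.6 and 50.2 CPM, and the collagen cross-linking gene Loxl1 at 55.2, 296 and 173 CPM. Fn1 took 27.0, 7.27 and 15.3% of the reads of Fn1 and Col1a1 in tumours 1, 2 and 3, and Pdgfra 1.13, 2.24 and 3.52% of those of Pdgfra and Col1a1.

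Markers of other tissues moved with the same split between tumours. Skeletal muscle genes summed to 17.7, 56722 and 25953 CPM in tumours 1, 2 and 3. All 6 muscle genes past the filter were at least 4-fold below both others in tumour 1 (8.21% of all genes). The other 8, near 0 in tumour 1, did not pass. The creatine kinase gene Ckm had 33, 263510 and 182608 counts. Without desmin (Des), which the muscle list also holds and which was at 11.2, 3185 and 1701 CPM, mural cell markers summed to 625, 1457 and 850.1 CPM. Pdgfrb, a gene of mural cells, did not have that order. Macrophage markers summed to 598, 3847 and 2469 CPM, with the complement gene C1qa at 161, 2426 and 1369 CPM.

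Epithelial and fat markers had no single order over the tumours. Basal and myoepithelial markers summed to 293, 53.4 and 30.1 CPM, highest in tumour 1 as were Fn1 and Sparc. Of these, Krt5 was at 64.4, 1.62 and 1.46 CPM and Krt14 at 107, 12.4 and 6.74 CPM. Luminal markers, which mark the tumour cells of this model, summed to 2058, 1651 and 2522 CPM, with Krt8 lowest in tumour 1 at 407, 734 and 1038 CPM and the claudin gene Cldn3 at 419.9, 86.6 and 222 CPM. Adipocyte markers summed to 285, 205 and 147 CPM, with Fabp4 at 215, 144 and 120.1 CPM and Adipoq at 24.3, 3.60 and 3.69 CPM. The part of muscle, mural, macrophage, epithelial and fat tissue in the values of the 10 genes was not tested.

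**Figure D5:**
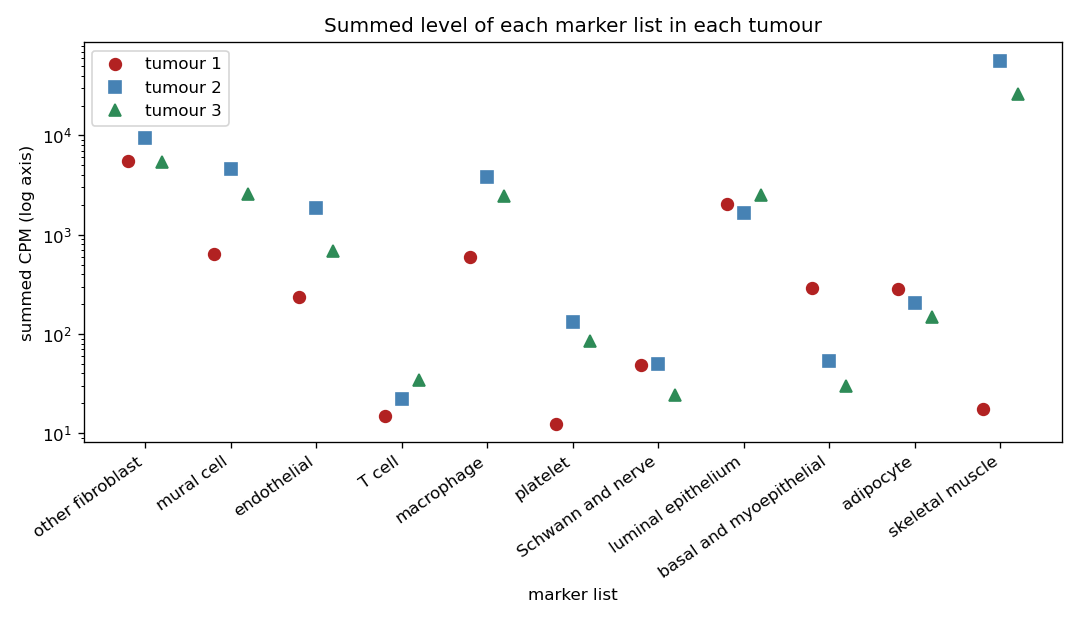
Summed CPM on a log axis of each marker list in tumours 1, 2 and 3, with points for single tumours. Skeletal muscle sums to 17.7 CPM in tumour 1 and to 56722 and 25953 CPM in tumours 2 and 3, the widest gap of the 11 lists plotted.

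Genes close to the receptor genes on the chromosome were also read. Within 500 kb of Pdgfra, 2 genes passed the filter. The receptor tyrosine kinase gene Kit was at 184, 4.47 and 4.77 CPM in tumours 1, 2 and 3, opposite to Pdgfra, and Chic2 was at 30.0, 10.9 and 23.6 CPM. Within 500 kb of Pdgfrb, 14 genes passed. Csf1r, the macrophage growth factor receptor gene and a neighbour of Pdgfrb, was at 82.5, 229.8 and 203 CPM, whereas Pdgfrb was not lower in tumour 1. These neighbours and the window were chosen after values were seen.

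The genes past the filter whose profile lay closest to that of a receptor gene were found by the Euclidean distance of log2 CPM centred over the 3 tumours. For Pdgfra these were Zbtb20, Zfp276 and Junos, at distances of 0.01, 0.02 and 0.02. For Pdgfrb they were H2-Q10, Gfm2 and Golga5, at distances of 0.01, 0.01 and 0.02. Junos is antisense to Jun, and H2-Q10 can share reads with other class I genes, so their values are uncertain. With 3 points such a likeness is weak, since 332 genes (2.61%) lay within 0.25 of Pdgfra and 380 genes (2.99%) within 0.25 of Pdgfrb.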

How the data were processed

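Total RNA of 3 tumours was made into TruSeq mRNA libraries, per the labels' protocols. The deposited files hold Salmon estimated counts for each gene symbol, per the file headers, with no scaling by depth or length. The submitters' processing notes also name Picard, SAMtools, STAR and build mm10. Tool versions, the annotation and the strandedness used in counting were not given in these sources, so antisense reads cannot be told apart.

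Counts were rounded to whole numbers and filtered with filterByExpr of edgeR 4.0.16 (R 4.3.3; minimum count 10, minimum total 15). TMM factors were 1.48, 0.722 and 0.936 for tumours 1, 2 and 3. Log2 CPM used a prior count of 2. A gene lay apart in a tumour at 2-fold or 4-fold from both others. With 1 group no model was tested. Intervals at 95% cover counting error only, and a count of 3 equals 0.0434, 0.373 and 0.191 CPM. Positions, lengths and GC contents came from GENCODE M21 on GRCm38, the assembly of mm10, and 45213 of 47480 symbols matched. The rule for calls was tested on simulated data with counting error only. These data had no spread between tumours apart from genes changed in tumour 1, so they do not test the rule under the spread seen here. Alternatives were other scalings (DESeq2 1.42.0 among them), filters, prior counts of 0.5 and 10, a GC and length trend, thinned counts, other transcript lengths and each tumour left out. The 10 genes and the marker lists were chosen with earlier results of these data known. From each list the text names the genes with the highest mean and the largest range among those past the filter, 5 and 3 for the PDGF pathway and fibroblast lists and 1 each for the others, besides Pdgfc, Pdgfd, Pdgfrl, Col1a1 and Dcn and the 3 genes closest in profile to each receptor gene. Genes named outside this rule are marked.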

Additional observations from a re-analysis of the deposited data

How the results depend on the processing

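No paired analysis was possible because all samples form 1 group. DESeq2 size factors, the mean CPM filter, both prior counts, the scaling without muscle markers and thinned counts kept every count within 1.5 times of its TMM value and every median within 1 SD between tumours (0.213) of it. Within that tolerance, DESeq2 size factors gave a median of −0.19 in tumour 1 and 15 list genes above in tumour 2, the mean CPM filter 39 below in tumour 1, and thinned counts 9 above in tumour 2. With library totals, 4 of the 10 genes were at least 2-fold above both others in tumour 1, against 0 under TMM. The median difference was then 0.75 in tumour 1 and −0.34 in tumour 2. Over the marker lists, library totals gave 36 genes above and 17 below in tumour 1 (16 and 29 under TMM), 5 and 6 in tumour 2 (12 and 3), and 1 and 2 in tumour 3 (0 and 4). By the same 2-fold rule under TMM, 22.1% of all genes were above and 20.7% below in tumour 1. The shares were 5.43 and 7.14% in tumour 2, and 0.865 and 1.35% in tumour 3. Shares of all genes under other settings are not given, so list counts are not read as a result about the lists. Upper-quartile factors and no filter each put 1 gene of the 10 at least 2-fold above in tumour 1, and no filter gave 7 list genes below in tumour 3. Without the GC and length trend, 1 gene was at least 4-fold and 2 at least 2-fold below in tumour 1, with a median difference of −0.36. Under the fibroblast scaling, added after the data were seen, 2 of 10 ranged at least 4-fold, 4 were at least 2-fold above and 0 below in tumour 1, and the medians were 0.82 in tumour 1 and −0.60 in tumour 2. Library totals and the fibroblast scaling raised the median of all genes in tumour 1 by 0.84 and 0.91, so their counts and medians carry that shift. The cause of the other changes was not tested. With median transcript lengths the log2 ratio of Pdgfra to Pdgfrb per kilobase was 1.09, of opposite sign to −1.04.

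With 1 tumour left out, the rule compares a tumour with 1 other in place of 2, so it is looser by construction and a gene above in one tumour is below in the other. Under it, 0 to 1 genes ranged at least 4-fold, the count being 0 without tumour 1 and 0 without tumour 2. In tumour 1, 0 to 1 were at least 2-fold above, 1 to 3 at least 2-fold below and 0 to 1 at least 4-fold below. In tumour 2, 0 to 3 were at least 2-fold above, 0 to 1 at least 4-fold above and 0 to 1 at least 2-fold below, and in tumour 3, 0 to 1 were at least 2-fold above. The median difference in tumour 1 lay between −0.36 and 0.14. Each run recomputed the filter and TMM totals, so its CPM have a scale of their own and means can lie outside the values of single tumours. On those scales, mean levels lay between 50.1 and 79.0 CPM for Pdgfa and 56.4 and 84.8 CPM for Pdgfrb. They lay between 391.8 and 767 CPM for Sparc and 236 and 509.9 CPM for Fn1. The mean of each of these genes was lowest without tumour 1, and the part of the changed scale in this was not tested. Over the marker lists, 21 to 42 genes were above and 3 to 21 below in tumour 2, and 3 to 35 above and 21 to 23 below in tumour 3. The share of all genes in these runs is not given, so these counts are not read as a result about the lists. The shallowest library, tumour 2, set the precision of the lowest gene, Fap, with 102 counts.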
